A study of Mus musculus with 26 samples.

Results

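The genes described here are 9 genes of macrophages and other immune cells, followed through single cells of mouse fetal ovaries. They are C1qa, C1qb, C1qc, Fcer1g, Tyrobp, Lyz2, Ptprc and Laptm5, called the 8 macrophage genes below, and Fcgr2b. They are 9 of the 16344 complete gene rows read from the deposited count table. They were chosen from measured values of these cells: rare cells with macrophage genes in each sort gate, and an Fcgr2b level that was higher at late stages in cells without Tyrobp and Ptprc. Those values are therefore given as a description, with no test.

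The series holds 1881 cells in 26 libraries, from 8 stages between embryonic days E11.5 and E18.5, with E0.5 as the day the vaginal plug was found. All cells came from female fetuses of BVSC transgenic mice, which carry the reporters Blimp1-mVenus and Stella-ECFP that mark germ cells, and no group was treated or mutant. Gonads of several embryos were combined at each stage, taken apart with trypsin and sorted by FACS, and cells were picked singly by mouth for a modified STRT-seq protocol that counts molecules by unique molecular identifiers (UMIs) near the 3' end. The sort gate was BVSC (both reporters) for 1302 cells, BV for 50 cells and Negative for 529 cells. E11.5, E12.5 and E13.5 are called early below, and E16.5, E17.5 and E18.5 late. Depth per cell ran from 10016 to 948642 UMIs, with a median of 214706. By gate, 9 germ identity genes summed to 2212 CPM (UMIs scaled to a common total per cell) in BVSC cells, 2145 CPM in BV cells and 181 CPM in Negative cells, whereas 5 early gonadal somatic genes summed to 29.9, 42.3 and 1059 CPM and 17 other myeloid genes to 36.6, 324 and 60.4 CPM. Since the labels do not name separate animals behind the libraries, p-values here cover only how much libraries of a stage differ, and that may be technical.

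Macrophages enter fetal organs from the yolk sac and the fetal liver, clear dying cells and are found in the gonads from their formation. C1qa, C1qb and C1qc encode the A, B and C chains of complement C1q, which tissue macrophages secrete. Fcer1g (the Fc receptor gamma chain) and Tyrobp (DAP12) are membrane adaptors that carry the activating signal of Fc and other immune receptors. Lyz2 is a lysozyme of myeloid cells, Ptprc is CD45, the phosphatase on the surface of nucleated blood cells, and Laptm5 is a lysosomal membrane protein of blood cells. Fcgr2b encodes the inhibitory receptor for immunoglobulin G, which signals through the phosphatases SHIP1 (Inpp5d) and SHP-1 (Ptpn6) and is also known from sinusoidal endothelium.

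Positions are those of the GRCm38 (mm10) build. C1qa, C1qb and C1qc lie side by side on the minus strand of chromosome 4, within 18.7 kb (chr4:136880129-136898803). Fcgr2b (chr1:170958617-170976547, minus strand) and Fcer1g lie with Fcgr3 and Fcgr4 within 276 kb of chromosome 1. An exon of Fcgr2b overlaps Gm38204 on the other strand, and since the strand setting of the counting is not given in the sources used here, reads of these genes may not be told apart. RefSeq (GRCm38.p6) gave 8 promoters for 7 of the 9 genes, each running from 250 bases before to 50 bases after the start site. The promoters below are shown because they hold GAGGAA, the core bound by PU.1, the myeloid factor encoded by Spi1, or because they belong to Fcgr2b, the member seen outside immune cells. Capitals mark GAGGAA or its reverse complement TTCCTC, and both strands were searched.
C1qb, chr4:136886151-136886450 (minus strand): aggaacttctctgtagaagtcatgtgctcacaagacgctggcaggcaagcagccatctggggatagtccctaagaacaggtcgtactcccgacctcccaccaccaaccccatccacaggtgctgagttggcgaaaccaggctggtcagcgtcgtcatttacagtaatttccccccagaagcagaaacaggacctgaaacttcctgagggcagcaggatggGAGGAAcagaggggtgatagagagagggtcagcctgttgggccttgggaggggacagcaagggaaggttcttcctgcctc
C1qc, chr4:136892865-136893164 (minus strand): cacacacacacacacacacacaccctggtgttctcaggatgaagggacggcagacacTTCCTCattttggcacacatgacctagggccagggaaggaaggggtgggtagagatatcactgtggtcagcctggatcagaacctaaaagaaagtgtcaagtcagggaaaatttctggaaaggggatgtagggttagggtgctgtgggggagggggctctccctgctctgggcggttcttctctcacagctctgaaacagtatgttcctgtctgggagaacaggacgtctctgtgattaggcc
Ptprc, chr1:138175256-138175555 (minus strand): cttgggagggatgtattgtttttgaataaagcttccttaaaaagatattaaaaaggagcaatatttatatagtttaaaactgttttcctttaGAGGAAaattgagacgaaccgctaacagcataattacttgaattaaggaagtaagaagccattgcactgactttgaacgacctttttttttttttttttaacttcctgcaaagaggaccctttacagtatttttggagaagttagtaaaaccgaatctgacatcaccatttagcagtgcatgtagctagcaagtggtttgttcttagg
Laptm5, chr4:130913066-130913365 (plus strand): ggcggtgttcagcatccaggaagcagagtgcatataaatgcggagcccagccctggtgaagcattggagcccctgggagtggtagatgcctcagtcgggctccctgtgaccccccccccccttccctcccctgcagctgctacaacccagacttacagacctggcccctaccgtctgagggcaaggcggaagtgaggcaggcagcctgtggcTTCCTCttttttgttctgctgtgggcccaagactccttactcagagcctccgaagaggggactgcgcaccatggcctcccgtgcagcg
Fcgr2b, chr1:170976022-170976321 (minus strand): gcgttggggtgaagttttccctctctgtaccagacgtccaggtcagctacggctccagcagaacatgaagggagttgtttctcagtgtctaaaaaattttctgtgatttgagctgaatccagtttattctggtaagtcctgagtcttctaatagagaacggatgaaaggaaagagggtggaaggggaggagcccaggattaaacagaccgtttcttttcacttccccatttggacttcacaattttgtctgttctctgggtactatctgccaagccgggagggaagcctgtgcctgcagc
The core starts 30 bases before the start site in C1qb, 193 before in C1qc, 158 before in Ptprc and 38 before in Laptm5. It is in 4 of these 7 genes, and 28.3% of the 32851 promoters in the RefSeq table hold it. The longer GAGGAAGT, which contains GAGGAA, is in C1qc alone among the 7, and in 3.20% of all promoters. Neither was found in the windows of Fcer1g, Lyz2 and Fcgr2b.

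Cells with high levels of several macrophage genes were rare and present in each gate. A cell was called strongly expressing if at least 3 of the 8 macrophage genes had at least 20 UMIs, a limit chosen after the values were seen. It held 16 of 1881 cells (0.851%, exact 95% interval 0.487% to 1.38%). The limit cut a wide gap, since the third-highest of the 8 counts was at least 48 UMIs in these cells and at most 10 UMIs in every other cell. Of the 16 cells, 4 of 1302 were in the BVSC gate (0.307%, 0.0838% to 0.785%), 4 of 50 in BV (8%, 2.22% to 19.2%) and 8 of 529 in Negative (1.51%, 0.655% to 2.96%). All intervals cover counting error only. The 4 BVSC cells came from E11.5, E12.5, E14.5 and E18.5. The 4 BV cells were 4 of the 5 BV cells of E11.5, all in library 2. The 8 Negative cells were all late, with 3 of 92 at E16.5, 1 of 46 at E17.5 and 4 of 44 at E18.5.

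All 16 cells fell into the same cluster, cluster 14, although the 9 genes and 3 further Fc receptors had been left out of the clustering. The cluster held 20 cells and was led by Cd53, Ctss, Spi1, C3ar1 and Cybb. The other 4 cells of the cluster had no UMI of Spi1, Cd53 or Ctss and 39 to 114 UMIs of Egfl7, a gene of endothelial cells. A lower limit, at least 2 UMIs of at least 5 of the 8 genes, took in 57 cells, 42 of them BVSC, 4 BV and 11 Negative, of which 12 were strongly expressing. Of the other 45 cells, 43 were in libraries that held a strongly expressing cell.

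The 16 cells were of 2 kinds, split by the C1q genes. The 9 C1q-positive cells were the 4 BVSC cells, the 4 BV cells and 1 Negative cell of E16.5. They had 84 to 299 UMIs of C1qa (median 195), 169 to 394 of C1qb (median 215) and 158 to 249 of C1qc (median 206). All 3 chains were thus well above the counts of other cells in each of these cells, from E11.5 to E18.5. Fcer1g had 48 to 429 UMIs (median 203) and Tyrobp 113 to 270 (median 198) in these cells. Ptprc had 27 to 82 UMIs (median 56) and Laptm5 64 to 236 (median 140). Lyz2 varied the most among the 8 genes, with 39 to 825 UMIs (median 176): the highest count was that of the BVSC cell of E18.5 and the lowest that of a BV cell of E11.5. The 9 cells also held 87 to 228 UMIs of the protease gene Ctss, 32 to 123 of Spi1, 38 to 182 of the complement receptor gene C3ar1 and 32 to 224 of the activating Fc receptor gene Fcgr3. Fcgr2b was at 0 in 5 of the 9 cells, and at 5, 7, 11 and 28 UMIs in the other 4.

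**Figure D1:**
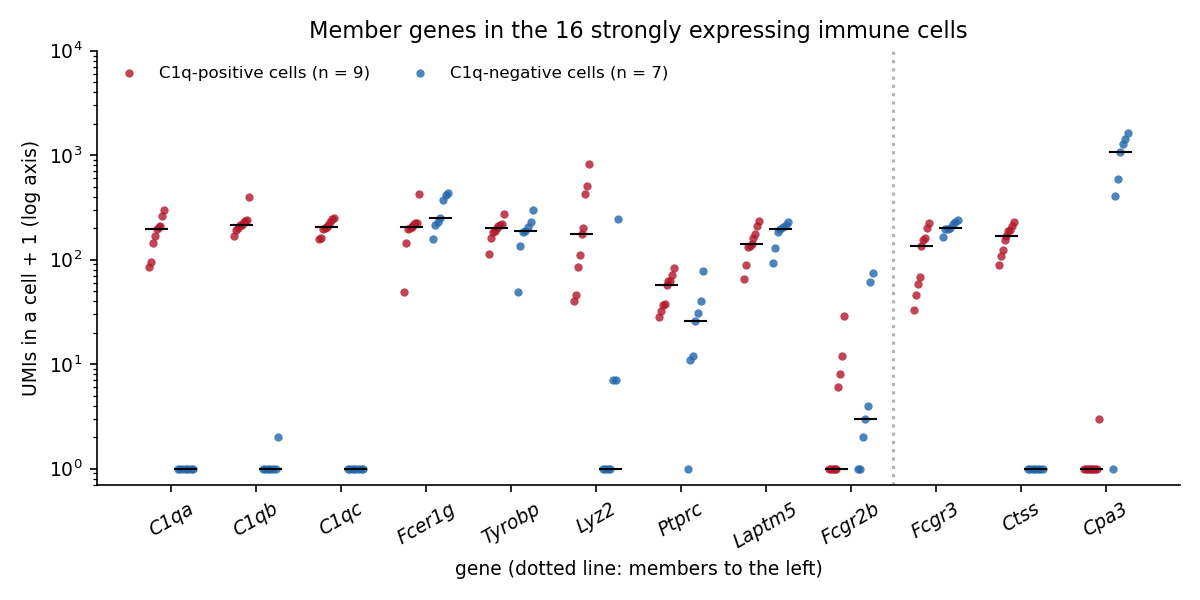
UMIs per cell plus 1 (log axis) of the 9 members and of Fcgr3, Ctss and Cpa3 in the 16 strongly expressing cells, each point a cell and each line the median of 9 C1q-positive or 7 C1q-negative cells. C1qa, C1qc and Ctss are at 0 UMIs in all 7 C1q-negative cells, which have 158 to 430 UMIs of Fcer1g.

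The 7 C1q-negative cells were all Negative cells of late stages. C1qa, C1qc, Ctss and C3ar1 had no UMI in any of them, and C1qb had 1 UMI in 1 cell. They nevertheless had 158 to 430 UMIs of Fcer1g, 48 to 297 of Tyrobp, 91 to 230 of Laptm5 and 165 to 238 of Fcgr3. Ptprc ranged from 0 to 77 UMIs, and Lyz2 was at 0 in 4 of the 7. In 6 of these cells 3 mast cell genes were high: Cpa3 (carboxypeptidase A3) had 402 to 1635 UMIs, Hdc (histidine decarboxylase) 201 to 557 and Gata2 93 to 200. Kit, the receptor that mast cells share with germ cells, had 25 to 199 UMIs in 5 of them and 3 UMIs in the other, from library 26 at E18.5, which also had 195 UMIs of Nkg7. Of 5 mast cell marker genes read here, Cpa3, Gata2 and Hdc passed the marker limit for cluster 14 as a whole. Kit and Fcer1a did not. The limit was a mean CPM above 2 times that of all other cells plus 5. The remaining cell, from E18.5, had none of Cpa3 and instead 2073 UMIs of S100a8, 843 of S100a9 and 757 of Elane, genes of neutrophils and their precursors. Lyz2 had 242 UMIs in that cell, against 0 to 6 in the 6 cells with mast cell genes. Fcgr2b had 60 UMIs in the cell with neutrophil genes, 74 in a cell with mast cell genes of the same library and 0 to 3 in the other 5. At E16.5 and E18.5 the strongly expressing cells therefore differed in kind, while E17.5 held only 1 such cell, a C1q-negative one. The C1q genes were high in 2 of the 9 late cells.

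The genes most like the 8 in their pattern over the 1881 cells were Spi1 (Pearson r = 0.69), Cd53 (0.67), Ctss (0.66), C5ar1 (0.63) and Cybb (0.62), among 11113 genes seen in at least 10 cells. These correlations are of log2(CPM + 1) with the mean of the 8 genes, and cells of a library share its preparation and depth. Spi1 had a UMI in all 16 strongly expressing cells and held 91.3% of its UMIs there, whereas Ctss and Cybb had UMIs in all 9 C1q-positive cells and in 0 of the 7 others.

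Most UMIs of the macrophage genes lay in the 16 cells. The share was 92.1% for Ptprc, 85.6% for Laptm5, 83.02% for C1qa, 80.7% for C1qc, 77.7% for C1qb and 74.4% for Fcer1g. It was 68.8% for Lyz2 and 56.4% for Tyrobp, of which 39.6% lay in other BVSC cells. Fcgr2b differed, with 10.0% of its UMIs in the 16 cells and 83.5% in other Negative cells. Lyz2 has a near-identical neighbour, Lyz1, so that reads could be split between them. Lyz1 had 153 UMIs in all cells, against 3866 for Lyz2.

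Low counts of the C1q genes in other cells followed the libraries. In the 6 libraries that held a C1q-positive cell, 280 of 364 other cells (44.4% to 100% by library, median 81.6%) had a UMI of C1qa, C1qb or C1qc. In the 19 libraries of at least 5 cells that held none, 32 of 1499 cells had one (0% to 19.6% by library, median 0%). The ranges did not overlap, and the summed C1q count of such a cell was at most 27 UMIs. Cell numbers 1 to 96 were reused among libraries, and the highest C1q counts of 2 libraries without a C1q-positive cell were in cells that share the number of a C1q-positive cell elsewhere: 24 UMIs in cell 62 of library 20 (C1q-positive cell 62 in library 21) and 20 UMIs in cell 80 of library 13 (C1q-positive cell 80 in library 12). In all, 132 cells of libraries without a C1q-positive cell shared such a number, of which 3 had a C1q UMI, and the highest cells of library 6 (20 UMIs) and library 3 (14 UMIs) had other numbers. A UMI of these genes in a single cell is therefore read here as a value of its library, and the results below are given with and without the cells or libraries concerned. The source of the low counts was not tested.

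**Figure D2:**
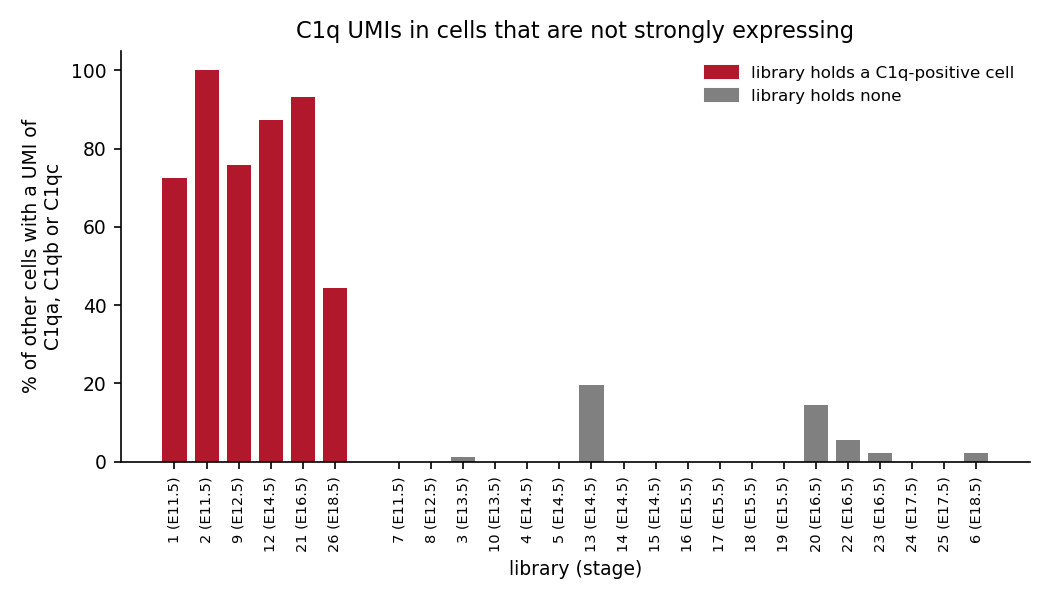
Percent of cells with a UMI of C1qa, C1qb or C1qc, strongly expressing cells left out, for the 6 libraries with a C1q-positive cell (red, left) and the 19 without (grey, right), each bar a library with its stage. Red bars stand between 44.4% and 100%, grey bars between 0% and 19.6%.

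Tyrobp was the member with a level of its own in germ cells, high in early and low in late BVSC pools. A pool is the sum of the cells of a gate, stage and library, and strongly expressing cells are left out of the next values. At E11.5 Tyrobp had 15.4 CPM in library 1 and 17.9 CPM in library 7, and at E12.5 9.49 CPM in library 8 and 13.4 CPM in library 9. At E13.5 it had 6.54 and 7.45 CPM, at E14.5 2.08, 4.70, 5.16 and 6.65 CPM, and at E15.5 0 and 1.45 CPM. Each stage up to E15.5 thus stood lower than the one before, with overlap between the libraries of E13.5 and E14.5. At E16.5 it had 0.300 and 0.550 CPM and at E17.5 0.542 CPM in library 25, none of which held a strongly expressing cell. In the late libraries that did hold one it had 8.01 CPM (library 24, E17.5), 5.97 CPM (library 6, E18.5) and 3.93 CPM (library 26, E18.5).

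Over all BVSC cells, Tyrobp fell in late relative to early pools (log2 fold change -2.03, SE 0.73, adjusted p = 0.0236, edgeR quasi-likelihood test over 10246 genes), with 0.300 to 49.8 CPM in 6 late pools (median 3.26) and 6.54 to 25.002 CPM in 6 early pools (median 13.7). The groups overlapped through the late libraries with a strongly expressing cell. Without the strongly expressing cells the change was -2.60 (adjusted p = 0.00337), and without every library that held one it was -4.74 (adjusted p = 0.00235). Without library 22 the adjusted p was 0.0504, and a slope over all stages was -0.061 per day (adjusted p = 0.770).

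The level came from a minority of cells. Apart from the strongly expressing cells, 63 BVSC cells had at least 10 Tyrobp UMIs, against 0 Negative cells. They made up 53 of 429 early cells (12.4%, 7.61% to 21.1% by library), 8 of 443 cells of E14.5 and E15.5 (1.81%) and 2 of 426 late cells (0.469%), with 0 of 259 in the 3 late libraries that held no strongly expressing cell. All 63 cells were in the germ clusters 2 to 9. Of these, 62 had no UMI of Ptprc, 60 none of Spi1 and 44 none of any C1q gene, and the highest Fcer1g count was 7 UMIs. In 42 cells, all BVSC, Tyrobp had at least 10 UMIs and the other 7 macrophage genes none, with up to 81 UMIs at E14.5. Of these cells 16 were from E11.5, 8 from E12.5, 12 from E13.5, 5 from E14.5, 1 from E15.5 and 0 from later stages. Hcst, which lies beside Tyrobp on chromosome 7 and encodes the related adaptor DAP10, had 5 UMIs in the 42 cells, against 794 UMIs in the 16 strongly expressing cells. Nfkbid, a further neighbour, had 417 UMIs in the 42 cells, against 402 UMIs in the 16.

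**Figure D3:**
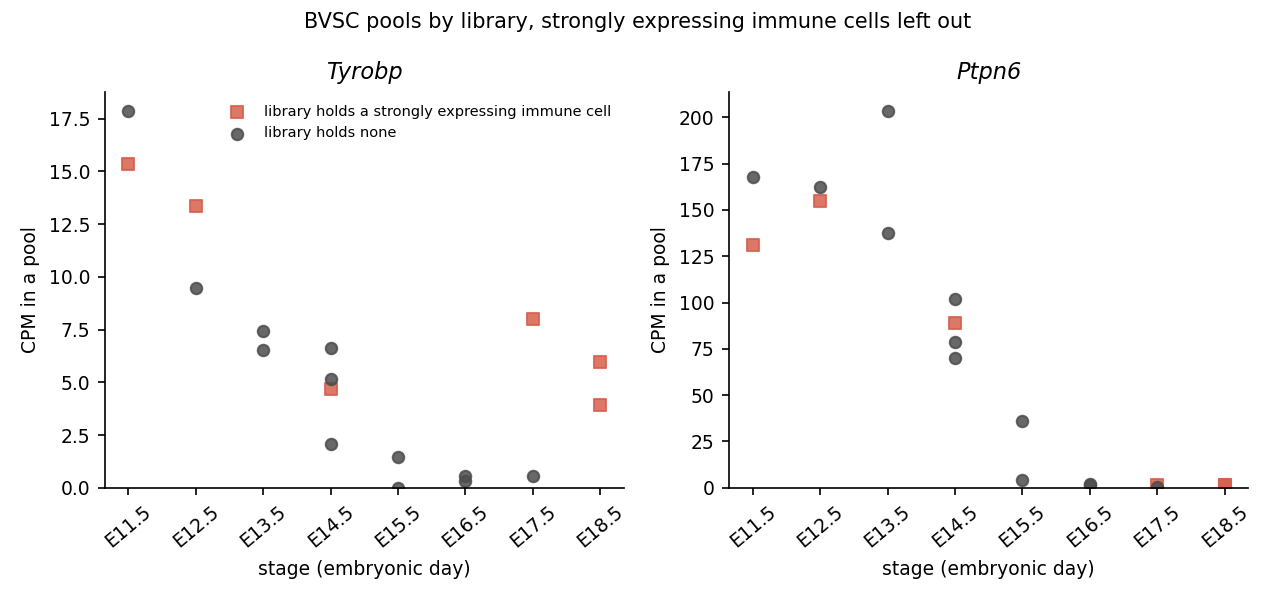
CPM of Tyrobp (left) and Ptpn6 (right) in BVSC pools by stage, each point a library, with the strongly expressing cells left out and libraries that held such a cell as red squares. Tyrobp has 6.54 to 17.9 CPM at early stages and 0.300 to 0.550 CPM in the 3 late libraries without a strongly expressing cell, and Ptpn6 has 131 to 203 CPM at early stages.

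Among the other members tested in BVSC pools, Lyz2 was the only one besides Tyrobp to pass. Thus 2 of the 9 genes were called, where 53.2% of all genes tested were. C1qa, C1qb and C1qc are counted among the 9 but gave no usable estimate. Lyz2 was higher in late pools (log2 fold change 4.48, SE 1.85, adjusted p = 0.0479), with 0.674 to 196 CPM in late pools (median 2.89) and 0 to 8.56 CPM in early pools (median 0). The 196 CPM were those of library 26, which held the cell with 825 Lyz2 UMIs. Without the strongly expressing cells the change was 5.42 (adjusted p = 0.0106). The call was lost with the library title prefix as a covariate (2.49, adjusted p = 0.321) and without library 26 (2.42, adjusted p = 0.258), 3, 7, 8, 10 or 20 (adjusted p = 0.0646 to 0.0997 for these). Outside the strongly expressing cells, Lyz2 reached 20 UMIs with no other macrophage gene at 20 in 6 cells, 1 Negative and 5 BVSC, with 22 to 38 UMIs. The cell with 38 UMIs was cell 62 of library 20, which shares its number with a C1q-positive cell of library 21. It also had 8 UMIs of C1qa, 7 of C1qb, 9 of C1qc and 11 of Laptm5.

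Fcgr2b had 0.225 to 3.79 CPM in late BVSC pools (median 0.617) and 0 to 0.379 CPM in early ones (median 0.0605). Its log2 fold change of 3.18 (SE 1.39) missed the threshold (adjusted p = 0.0597). It passed without the strongly expressing cells (3.60, adjusted p = 0.0433) and without library 16 (adjusted p = 0.0484), and did not pass without every library that held one (2.52, adjusted p = 0.423). These were few molecules: 71 of 1298 BVSC cells had a UMI of Fcgr2b, 56 of them exactly 1, and 3 had at least 5, in clusters 14, 12 and 1, none of them a germ cluster. In the same late BVSC pools 5 of 8 stroma genes were higher and 0 lower, and of 7 supporting or pregranulosa genes 4 were higher and 1 lower. Hsd3b1, a steroidogenic enzyme, was higher too (log2 fold change 5.10, adjusted p = 1.03e-05). The part of such cells in the Fcgr2b level was not tested. Fcer1g (0.53, adjusted p = 0.821), Ptprc (-0.29, adjusted p = 0.983) and Laptm5 (2.70, adjusted p = 0.188) did not pass. C1qa, C1qb and C1qc had no UMI in any BVSC pool of 3 stages and gave no usable estimate. Their pools ranged from 0 to 51.6 CPM in late and from 0 to 18.3 CPM in early libraries for C1qb, with the highest pool in a library that held a C1q-positive cell in both.

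Genes that act with the Fc receptors and adaptors moved in BVSC pools in both directions. Of 13 tested genes for Fc receptors and their signalling, 3 were higher and 2 lower in late pools, with a median log2 fold change of 0.02, beside 0.25 over all genes tested, of which 29.3% were higher and 23.9% lower. Ptpn6, the SHP-1 phosphatase, had 0.241 to 18.8 CPM in late pools and 131 to 203 CPM in early pools, ranges that did not overlap (log2 fold change -6.15, SE 0.58, adjusted p = 2.94e-08). Inpp5d, the SHIP1 phosphatase, fell as well (1.18 to 6.36 CPM in late and 13.3 to 21.5 CPM in early pools, log2 fold change -2.77, SE 0.45, adjusted p = 2.86e-05). Ptpn6 was carried by nearly every early BVSC cell, with a UMI in 98.4% to 100% of cells by library, unlike Tyrobp. Btk, a kinase of B cell and Fc receptor signalling, rose (0.497 to 12.4 CPM in late and 0 to 1.65 CPM in early pools, log2 fold change 5.23, SE 1.31, adjusted p = 0.00249). Fcrla, an intracellular Fc receptor-like protein of B cells, had 0 UMIs in all early pools and 83 UMIs in late pools. Its late pools ran from 0 to 4.35 CPM (median 0.0301), with 3 of 6 at 0. Summed over pools, Fcrla was at least 39.8-fold higher late, against a floor of 3 counts over the early pools (adjusted p = 0.0212, edgeR). Its call was lost by DESeq2 (adjusted p = 0.204) and without library 1, 3, 6, 7, 8, 9, 10, 22 or 25.

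Of 20 complement genes tested in BVSC pools, 4 were higher and 4 lower in late pools (median log2 fold change 1.04). C8a, a chain of the membrane attack complex, rose (29.3 to 82.7 CPM in late and 0 to 1.09 CPM in early pools, log2 fold change 8.78, SE 0.91, adjusted p = 1.41e-07). Cfi, the protease factor I that inactivates C3b, rose at lower levels (0.196 to 2.15 CPM in late and 0 to 0.271 CPM in early pools, log2 fold change 4.72, adjusted p = 0.0106). Cfd (factor D, log2 fold change -6.79, adjusted p = 0.000739) and Masp2 (a protease of the lectin pathway, -5.71, adjusted p = 0.00699) fell, and each had UMIs in 1 of 6 late pools. Of 16 other myeloid marker genes tested, 1 was lower and 0 higher. It was Slc11a1, an ion transporter of phagosomes, with 0 to 9.91 CPM in late and 9.29 to 30.6 CPM in early pools (log2 fold change -5.49, SE 0.91, adjusted p = 3.80e-05).

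Fcgr2b behaved unlike the other members in Negative cells, the somatic side of the sort. In Negative cells with no UMI of Tyrobp and none of Ptprc, its pooled level was 0 CPM at E11.5, 1.04 at E12.5, 5.59 at E13.5, 8.31 at E14.5, 9.24 at E15.5, 13.3 at E16.5, 32.8 at E17.5 and 71.3 at E18.5. This pattern chose the gene. By library, both pools of E11.5 were at 0 CPM, those of E12.5 at 0 and 1.82 CPM, and the pool of E13.5 at 5.63 CPM. E14.5 had 3.66, 7.62 and 15.98 CPM, and E15.5 0.112 CPM in library 17 and 17.9 CPM in library 19. E16.5 had 11.7 and 19.6 CPM, E17.5 5.90 CPM in library 25 and 82.1 CPM in library 24, and E18.5 70.96 and 71.8 CPM. Few cells set these levels. A single cell held 100 of 106 UMIs in library 24, 106 of 113 in library 4 (E14.5) and all 27 at E13.5. All 5 UMIs of library 8 (E12.5) were also in 1 cell. The pool of library 23 (E16.5) had 5 cells, with 12 of 13 UMIs in 1 cell. At E18.5, 4 cells of each library had at least 5 UMIs. The order of the stages thus holds for the pooled values, but libraries of E15.5 and of E17.5 differed more among themselves than neighbouring stages did. E18.5 was above both pools of E16.5 in each library, while E17.5 spanned the range of both its neighbours.

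The condition on Tyrobp and Ptprc removed most cells where library counts of Tyrobp were common, and left 25 of 92 cells at E16.5. With all Negative cells except the strongly expressing ones, the pooled levels from E11.5 to E18.5 were 0, 0.963, 5.01, 8.77, 10.8, 25.4, 60.4 and 70.3 CPM. In bulk sums such as these, fewer cells with the gene and less RNA per cell cannot be told apart, but the single cells can be counted. Of 521 such cells, 446 had no Fcgr2b UMI, 24 had 1, 5 had 2 to 4 and 46 had at least 5. The 46 cells held 97.5% of the UMIs, with a median of 25.5 UMIs (range 5 to 106) and 135 CPM (27.7 to 742). They made up 33 of 174 late cells and 2 of 125 early cells. By stage their share was 0% at E11.5 (0 of 46 cells, which by the limit of 3 counts allows a share of up to 6.52%, with an exact upper end of 7.71%), 2.17% at E12.5, 3.03% at E13.5, 5.11% at E14.5, 4.71% at E15.5, 15.7% at E16.5 (8.88% to 24.98%), 15.6% at E17.5 (6.49% to 29.5%) and 30% at E18.5 (16.6% to 46.5%). The exact intervals of neighbouring stages overlapped throughout. Thinned to 50000 UMIs per cell, which left out 9, 12, 5, 4, 4, 5, 13 and 8 cells, the shares with a UMI were 0%, 2.94%, 3.57%, 6.02%, 4.94%, 26.2%, 21.9% and 37.5%, against 0%, 2.17%, 3.03%, 8.76%, 10.6%, 31.5%, 22.2% and 35% before thinning. As a background, 5.47% of BVSC cells (median depth 248294 UMIs, against 169412 in Negative cells) had a UMI, and the shares of E11.5, E12.5 and E13.5 lay below it.

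**Figure D4:**
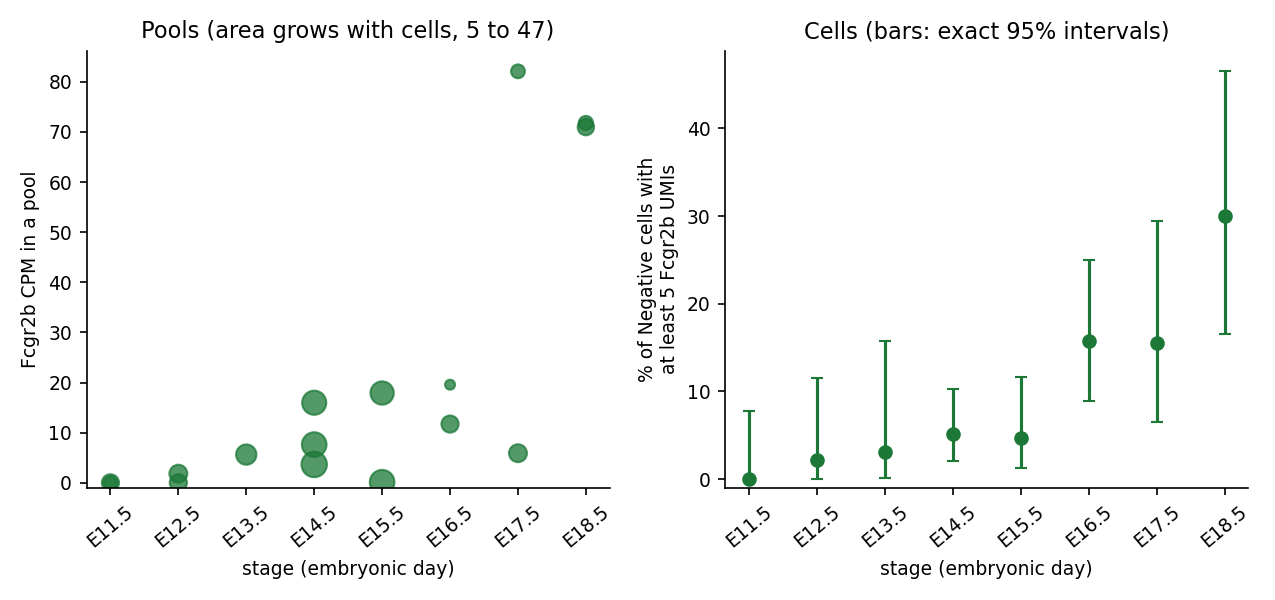
Left, Fcgr2b CPM by stage in Negative pools of cells with no Tyrobp and Ptprc UMI, each point a library with an area that grows with its cells. Right, percent of Negative cells with at least 5 Fcgr2b UMIs, strongly expressing cells left out, with exact 95% intervals. Pools of E18.5 stand at 70.96 and 71.8 CPM and those of E11.5 at 0, and the share of cells is 30% at E18.5 and 0% at E11.5.

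Counts of macrophage genes in the 46 cells were low. Their highest count was 3 UMIs of Fcgr3, 5 of Tyrobp, 2 of Ptprc, 2 of Spi1, 17 of Lyz2, 7 of Fcer1g, 5 of Laptm5 and 3 of C1qb, and 33 of them had no Fcgr3 UMI. Of the 46 cells, 30 of 228 were in cluster 1, 10 of 87 in cluster 12, 5 of 84 in cluster 11 and 1 of 92 in cluster 10. Cluster 12 is surface epithelium-like, with Upk3b leading, and cluster 10 is stroma-like, with Tcf21 and Lum among its leading genes. Cluster 12 also raised 4 of 8 stroma genes and 4 of 7 supporting or pregranulosa genes. Clusters 1 and 11 stay unnamed: their leading genes include U90926 and Wfdc6a for cluster 1 and Klk1 and Pax8 for cluster 11. Of 7 supporting or pregranulosa genes, cluster 1 raised 7 and cluster 11 raised 6, none of them among the leading genes. At late stages Fcgr2b had 63.1 CPM in cluster 12, 54.6 CPM in cluster 1, 40.7 CPM in cluster 11 and 3.78 CPM in cluster 10. At early stages these clusters had 0, 0, 3.86 and 0 CPM, with only 4 early cells in cluster 1. The level was thus low in the stroma-like cluster at late stages and higher in each of the other 3, of which cluster 11 held 9 late cells.

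Among late Negative cells, the 33 cells with at least 5 Fcgr2b UMIs had less of the stroma genes than the 141 others. These comparisons describe cells of 6 libraries chosen by their Fcgr2b count, with no test, and the median depth was 179180 UMIs in Fcgr2b cells and 142487 in the others. They were not made within clusters. The stroma-like cluster 10 had 35 late Negative cells, 1 of them among the 33, and the part of this mix in the differences was not tested. The 8 stroma genes summed to 523 CPM in Fcgr2b cells and 1686 CPM in the others, were lower in Fcgr2b cells in 6 of 6 libraries, and each of the 8 was lower. Tcf21, a transcription factor of stromal progenitors, had 6.38 CPM in Fcgr2b cells and 79.97 CPM in the others. The matrix proteoglycan genes Lum (7.75 and 75.1 CPM) and Dcn (55.5 and 326 CPM) differed in the same direction. The 7 supporting or pregranulosa genes summed to 1535 CPM in Fcgr2b cells and 1230 CPM in the others, higher in 5 of 6 libraries. Among them Rspo1, a WNT activator of ovary development, had 110 CPM in Fcgr2b cells and 61.8 CPM in the others, and Kitl, the ligand for the KIT receptor on oocytes, 679 and 559 CPM. The surface epithelium genes Upk3b (224 and 142 CPM) and Lhx9 (262 and 175 CPM) were also higher in Fcgr2b cells. Lrrn4, the other gene of that list, was lower in Fcgr2b cells (3.79 and 8.57 CPM), in 5 of 6 libraries. The summed endothelial genes had 162 CPM in Fcgr2b cells and 120 CPM in the others, higher in 3 of 6 libraries. Of 17 other myeloid genes, 7 were higher and 10 lower in Fcgr2b cells, with a sum of 38.6 against 16.2 CPM, of which Fgr, a kinase gene, made up 19.5 against 0.198 CPM.

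**Figure D5:**
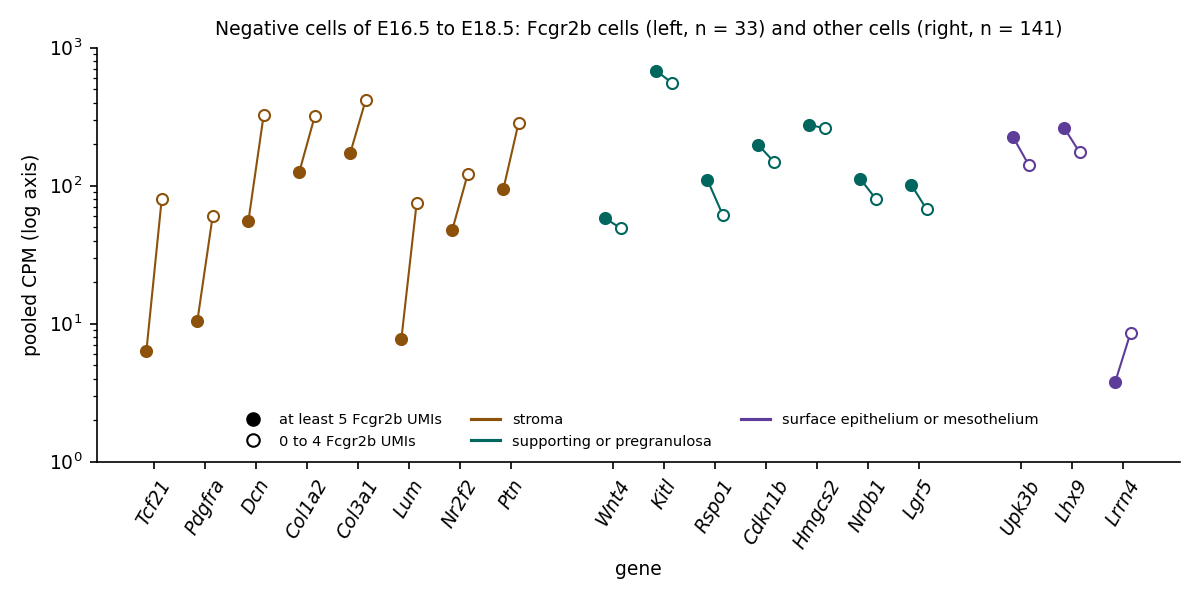
Pooled CPM (log axis) of stroma, supporting or pregranulosa and surface epithelium marker genes in late Negative cells with at least 5 Fcgr2b UMIs (filled points, left, 33 cells) and with 0 to 4 (open points, right, 141 cells). All 8 stroma genes are lower and all 7 supporting genes higher in the Fcgr2b cells, for example Dcn at 55.5 and 326 CPM.

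At E14.5 the cell names carry a letter, D, C or P, whose meaning is not given in the sources used here, and each of 3 Negative libraries held all 3 letters. Fcgr2b had 2.14, 0 and 2.50 CPM in D pools, 0.447, 9.31 and 0 CPM in C pools and 42.8, 13.4 and 8.20 CPM in P pools (libraries 4, 13 and 15). P pools were the highest in each library, but no difference passed the test. In each P pool 1 cell held all or nearly all of the UMIs. That cell held 106 of 107 in library 4, 55 of 56 in library 13 and 29 of 29 in library 15. Over all Negative cells of E14.5, at least 5 Fcgr2b UMIs were seen in 3 of 46 D, 1 of 44 C and 3 of 47 P cells. The log2 fold change was -3.80 (SE 1.82) for D against P, -2.88 (SE 1.73) for C against P and -0.92 (SE 1.67) for D against C, with adjusted p = 1.00 in each (edgeR quasi-likelihood test). The unadjusted p was 0.0500 for D against P. In these fits 0.0153% of 6546 genes were called for D against P, 0% for C against P (185 at an unadjusted p under 0.05, and 5 by DESeq2) and 0.0153% for D against C. The letters were in another order at other stages: P cells had 4.21 CPM at E16.5, against 33.8 CPM in C cells and 37.4 CPM in D cells, pooled over 2 libraries.

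Few relatives of the members moved with stage in Negative cells without Tyrobp and Ptprc, where 3.46% of 8321 genes were called between late and early pools (1.92% higher and 1.54% lower). Of 9 tested genes for Fc receptors and their signalling, 0 passed edgeR's quasi-likelihood test, 4 had an unadjusted p under 0.05 and 1 passed DESeq2 (median log2 fold change 0.21, beside 0.02 over all genes). Of 12 complement genes, 2 rose and 0 fell. C1ra, the protease that C1q activates, had 22.3 to 163 CPM in late pools and 1.69 to 25.1 CPM in early pools (log2 fold change 2.16, SE 0.56, adjusted p = 0.0237). Over all Negative cells its change was 0.39 (adjusted p = 0.883), and the call was lost without library 7, 9 or 23. Cd59a, an inhibitor of the membrane attack complex, had 83.02 to 172 CPM in late pools and 18.9 to 117 CPM in early pools (log2 fold change 1.25, SE 0.33, adjusted p = 0.0252), a call lost without library 9, 23, 24 or 26 (adjusted p up to 0.0718).

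Markers of other cell types moved in the same pools. Of 6 other myeloid genes tested in Negative cells, 0 passed the edgeR test (1 at an unadjusted p under 0.05, 0 by DESeq2), and of 4 mast cell genes 1 rose, Cpa3, with 0 UMIs in all early pools and 0 to 151 CPM in late pools (adjusted p = 0.00402, lost without library 23 or 24). Cpa3 was at 0 in 2 of the 6 late pools. The strongly expressing cells with 402 to 1635 Cpa3 UMIs were outside these pools but came from libraries 6, 23, 24 and 26. The source of the Cpa3 counts in the pools was not tested. One gene each rose and 0 fell among 7 supporting or pregranulosa genes (median log2 fold change 0.15), 3 steroidogenic genes (0.62) and 8 stroma genes (0.78). Lgr5, a receptor of pregranulosa cells, rose (log2 fold change 2.53, SE 0.58, adjusted p = 0.00788), as did Hsd3b1, a steroidogenic enzyme (2.63, adjusted p = 0.000381) and Dcn (2.06, adjusted p = 0.0482, lost without library 1, 9, 21, 23, 25 or 26). Lhx9 (-1.25, SE 0.24, adjusted p = 0.00120) and Nr5a1 (-1.13, SE 0.33, adjusted p = 0.0468, lost without library 1, 3, 8, 21, 24 or 26), transcription factors of the early gonad, fell. Of 9 germ identity genes 2 rose and 4 fell. Tfap2c, a transcription factor of early germ cells, had 0 UMIs in all late pools and 7.51 to 11.7 CPM in early pools, at least 31.7-fold lower over the group (adjusted p = 0.0150, lost without library 21). Sall4, a transcription factor of the same cells, had 0 to 0.774 CPM in late pools and 12.1 to 20.4 CPM in early pools (adjusted p = 0.00402). Tex101, a surface protein of germ cells, had 0 to 107 CPM in late pools and 0 to 3.34 CPM in early pools (5.56, adjusted p = 0.00159, lost without library 21). These 3 genes were far higher in BVSC pools and changed there in the same direction. Pooled over early and late BVSC pools, Tfap2c had 191 and 0.789 CPM, Sall4 271 and 3.92, and Tex101 20.3 and 536. The source of the germ gene counts in Negative cells was not tested. Hbb-bs, a haemoglobin chain and 1 of 4 erythroid genes, rose (2.55, adjusted p = 0.0119, lost without library 21), as did Kdr, 1 of 5 endothelial genes (2.17, adjusted p = 0.0326, lost without library 7, 9, 13, 15, 25 or 26). Their part in the Fcgr2b levels was not tested.

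Over the 16 pools of these Negative cells, the genes most like Fcgr2b were Frrs1 (Pearson r = 0.88), Gata3 (0.87), Sult1a1 (0.87), Ivd (0.83) and Gstt3 (0.83), among 5195 genes with a mean of at least 10 CPM. These are correlations of log2(CPM + 1), and the pools share libraries, stages and depth. Gata3, a transcription factor gene, averaged 27.7 CPM in late pools and 0.959 CPM in early pools, and Gstt3, a glutathione transferase gene, 64.2 and 12.9 CPM. Among late Negative cells, however, Gstt3 was lower in the 33 cells with at least 5 Fcgr2b UMIs than in the 141 others. It had 32.9 against 60.2 CPM there and was lower in 5 of 6 libraries. Frrs1, Gata3, Sult1a1 and Ivd had a higher pooled CPM in those 33 cells.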

How the data were processed

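The authors deposited raw UMI counts for each gene in each cell. Subread, featureCounts, STAR, UMI-tools and CASAVA 1.8 are named, with build mm10, per the submitters' processing notes. The 16344 complete genes read here cover 40.1% to 56.4% of the UMI total deposited for a cell (median 51.2%); 1 incomplete line was left out and other genes were not analysed here. CPM were scaled by deposited cell totals. Stage, gate, letter and library came from the cell table and cell names. The members and lists were chosen with earlier results of these data known. Named genes were the members, the Fc receptor relatives, up to 4 called genes of a list with the largest change, and the 5 genes most like Fcgr2b or the 8 genes; genes that define a cell kind were named after their values were seen.

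Counts were summed per library and stage into pools of at least 5 cells and tested with edgeR 4.0.16 (R 4.3.3; quasi-likelihood, TMM, filterByExpr, a mean per stage, Benjamini-Hochberg at 0.05), tested on simulated data first. Standard errors are the fold change divided by the root of F. Cells were clustered with scanpy 1.11.5 (Leiden, resolution 1.0); all 1881 were kept, and doublets were not called, since cells were picked by hand. No 2 cells had identical counts. Alternatives covered DESeq2 1.42.0, scaling, filters, pool size, cell sets, limits, depth and leaving out each library.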

Additional observations from a re-analysis of the deposited data

Results flagged for a closer look

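In BVSC pools of E14.5, library 12 stood far from the other 3 libraries for 7 genes, strongly expressing cells included. It had 16.51 CPM of C1qa, 23.4 CPM of C1qb and 14.3 CPM of C1qc, each at 0 CPM in the other 3. It had 24.2 CPM of Fcer1g (next highest 0.782), 23.7 CPM of Lyz2 (0.130), 9.67 CPM of Laptm5 (0.0652) and 1.56 CPM of Ptprc (0.0770). The 7 values are of 1 pool and of genes chosen because they mark the same cells, so they are not independent of each other. Chance alone sets about 1 in 20 groups apart. The library held 1 C1q-positive cell and 26 of the 45 cells past the lower limit only.

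In the BV gate, which enters no test, strongly expressing cells made up 80% of the cells of E11.5 (4 of 5, exact 95% interval 28.4% to 99.5%) and 0 of the 45 cells of E14.5, which by the limit of 3 counts allows a share of up to 6.67% (exact upper end 7.87%).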

How the results depend on the processing

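Among values that answer a comparison, 164 kept direction and call under the alternatives, 9 moved, 9 no longer passed, 6 newly passed and 2 reversed. DESeq2 called 569 and a slope per day 452 genes in Negative pools, against 288. In BVSC pools, the slope of Tyrobp was -0.061 per day. The Fcgr2b change there passed with DESeq2 (3.40), as a slope (0.56 per day), with the title prefix as a covariate (3.96), without the 57 cells past the lower limit (3.61) and without strongly expressing cells (3.60). Lyz2 was 2.49 with the prefix. D against C at E14.5 reversed to 0.79 over all Negative cells. Cells past the limit numbered 130 (1 UMI of 5 genes), 161 (2 UMIs of 3), 12 (2 UMIs of 8), 20 (cluster 14) and 16 (20 UMIs of 3), against 57. Late pooled Fcgr2b was 77.7 CPM per table UMIs, against 39.7, and early 5.06 CPM thinned, against 2.42. The limit of 20 UMIs, the settings that leave out strongly expressing cells or their libraries, and all Negative cells at E14.5 were chosen after seeing the data.

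Leaving out 1 library gave 236 to 388 called genes in Negative and 4710 to 5488 in BVSC pools, -3.08 to -1.80 for Tyrobp, 2.58 to 3.81 for Fcgr2b, 2.42 to 7.59 for Lyz2, -4.76 to -3.04 for D against P, -6.80 to -1.28 for C against P, -2.06 to 3.32 for D against C, and pooled Fcgr2b of 31.1 to 49.6 CPM late and 0.595 to 2.95 CPM early. The cause was not tested. Without cells that had any UMI of the 8 genes, no pool of E16.5 remained. Pooled Fcgr2b in the Negative cells left was 6.22 CPM at E13.5, 8.44 at E14.5, 7.02 at E15.5, 5.05 at E17.5 and 30.3 at E18.5. These values no longer followed the order of the stages, and those of E18.5 came from 13 cells, 3 of them with at least 5 Fcgr2b UMIs. No paired analysis was possible because, for late against early, each library holds a single stage and the labels give no number that links libraries across stages. The letters at E14.5 share libraries, and with library as a block, chosen after seeing the data, the changes were -3.26 (D against P, SE 1.91), -3.24 (C against P, SE 2.17) and -0.024 (D against C, SE 4.08), none of which passed. Low counts limit the C1q genes, Ptprc and Fcgr2b in BVSC pools, where a few UMIs set a level.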
